A study of Homo sapiens with 2 samples.

Results

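The DLG5 gene and its neighbours POLR3A and RPS24 on chromosome 10 were described through the ERα peaks listed around them in T47D cells, a human breast cancer cell line that expresses the oestrogen receptor. Members were chosen by listed position alone, as the regions whose centre lay between 79400000 and 79900000 on chromosome 10 (hg19), and there were 18 of them among 12688 listed regions, or 0.142% of the list. The study holds 1 ERα immunoprecipitation library, made with the H-20 antibody, and 1 input library made without antibody. Both came from T47D cells held 48 h without steroids and then exposed to 10 nM 17β-estradiol for 45 min. The regions are those that the authors called in the first library over the second. No library without estradiol was used here, so the values describe occupancy under the hormone and not a response to it. Since neither library was replicated, no value carries a replicate error and samples were not tested against each other, and the read depth behind each peak is unknown. Expression was not measured in these data. The window was proposed with the numbers and scores of its peaks already known, so its number of peaks is a description and supports nothing by itself.

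ERα, the product of ESR1, is a nuclear receptor that binds DNA as a dimer once it has bound oestrogen. Its classical element is an inverted repeat of the letters GGTCA with a short spacer between the arms, and in breast cancer cells it is known to bind mostly in introns and between genes, away from gene starts. DLG5 encodes a membrane-associated guanylate kinase protein, a scaffold with PDZ domains that takes part in epithelial polarity and cell adhesion. POLR3A encodes the largest subunit of RNA polymerase III, the enzyme that makes transfer RNAs and other small RNAs. RPS24 encodes a protein of the small ribosomal subunit. DLG5 lies on the minus strand at 79550549 to 79686378 and is therefore transcribed from the higher coordinate to the lower, over 135.8 kb. POLR3A is also on the minus strand, so the start of its interval at 79734907 is its 3′ limit. RPS24 is on the plus strand and starts at 79793518. In the RefSeq gene order of GRCh38 the protein-coding genes run KCNMA1, DLG5, POLR3A, RPS24 and ZMIZ1. The antisense gene DLG5-AS1 comes between DLG5 and POLR3A when genes are ordered by the start of their interval. POLR3A ends before RPS24 begins in that order, which puts the start of POLR3A between its 3′ limit and the start of RPS24. hg19 positions of these other genes were not used here, and no peak is assigned to them.

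The promoters of POLR3A and RPS24 are shown because the starts of both genes fall in a stretch of the window with no listed peak. They are RefSeq sequences of GRCh38, running from 250 bases before to 50 bases after the start of the gene and printed on the strand of the gene, and 2 of the 3 genes had an entry. Capitals mark the letters of an element arm, GGTCA or its reverse complement TGACC.
POLR3A (chr10:78029466-78029765, minus strand): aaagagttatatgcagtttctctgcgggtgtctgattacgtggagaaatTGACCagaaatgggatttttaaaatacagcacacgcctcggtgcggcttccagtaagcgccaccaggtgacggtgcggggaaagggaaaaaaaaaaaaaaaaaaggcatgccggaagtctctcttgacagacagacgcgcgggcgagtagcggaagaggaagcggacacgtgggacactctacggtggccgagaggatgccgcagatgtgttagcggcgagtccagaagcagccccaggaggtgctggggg
RPS24 (chr10:78033613-78033912, plus strand): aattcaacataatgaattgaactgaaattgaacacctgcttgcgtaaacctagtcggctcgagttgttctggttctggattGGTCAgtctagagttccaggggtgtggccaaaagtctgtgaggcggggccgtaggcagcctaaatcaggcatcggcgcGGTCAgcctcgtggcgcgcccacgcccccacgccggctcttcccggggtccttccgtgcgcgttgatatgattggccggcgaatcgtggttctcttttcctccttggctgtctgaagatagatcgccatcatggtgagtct
The POLR3A window held 1 arm, read on the opposite strand, and the RPS24 window held 2, both read on the strand of the gene. Arms of this kind are common: 13125 of 35116 RefSeq promoter windows of 300 bases (37.4%) held at least 1 on either strand, and 9.28% held 2 or more. The full palindrome GGTCANNNTGACC, which contains an arm on each strand, was found in 20 of these windows (0.057%) and in neither of the printed ones. A match is a description of the letters and not a binding site. The hg19 sequence of the peaks themselves was not used here.

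ERα peaks in the window were concentrated inside DLG5. Of the 18 peaks, 14 (77.8%) had their centre in the gene, which makes up 135.83 of the 500.001 kb, so the gene carried 10.3 peaks per 100 kb. The flank beyond the 3′ end of DLG5 held 3 peaks in 150.549 kb (1.99 per 100 kb). The stretch of 48.528 kb between DLG5 and the 3′ limit of POLR3A held 1 peak (2.06 per 100 kb). From that limit to the start of RPS24, and from there to the end of the window, 0 peaks were listed. For reference, equal windows laid from the first to the last peak of chromosomes 1 to 22 and X held 0.428 peaks per 100 kb on average.

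**Figure D1:**
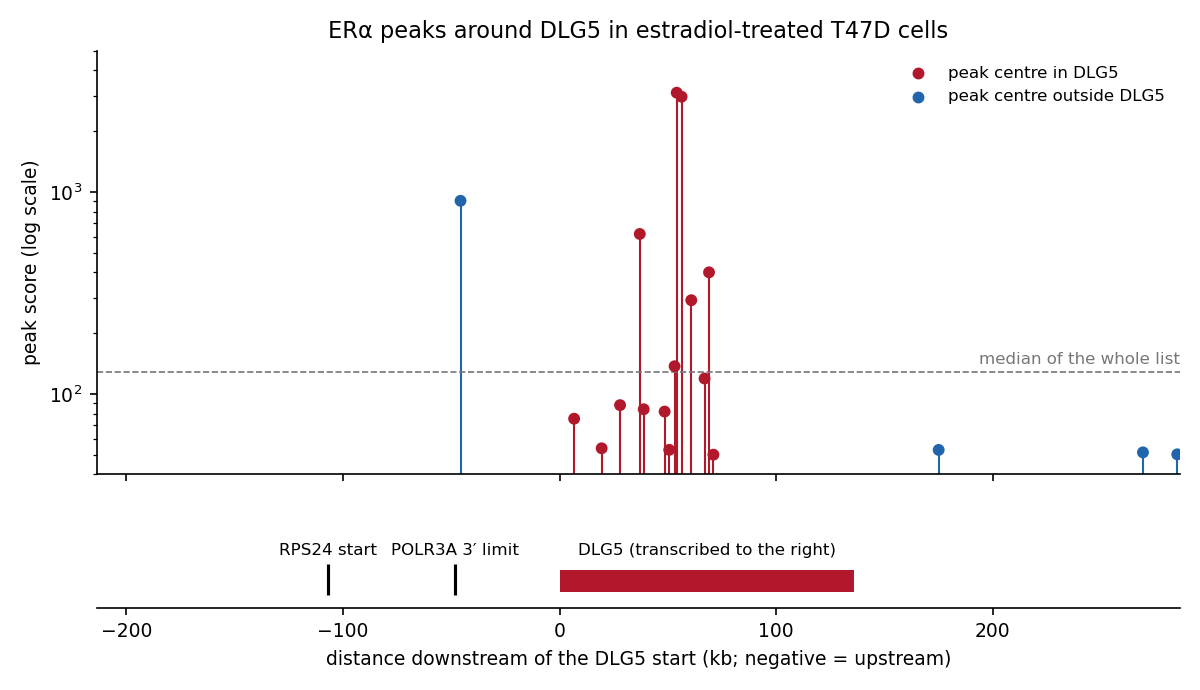
Score of each of the 18 window peaks on a log axis against its distance from the DLG5 start in kb, with the direction of DLG5 transcription to the right. Red points are the 14 peaks in DLG5, blue points the 4 outside it, the dashed line is the median score of the whole list, and the lower panel marks DLG5, the 3′ limit of POLR3A and the start of RPS24. The DLG5 peaks lie between 6.72 and 71.05 kb from the gene start, and no peak lies between the 3′ limit of POLR3A and the left edge.

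Within DLG5 the peaks lay from 4.9% to 52.3% of the gene's length away from its start, and none lay at the start. The 2 highest-scoring ones were at 39.8% and 41.5%. The peak nearest to the start was a weak one of 331 bp at 79679491 to 79679821, with a score of 75.45, and its centre was 6.72 kb inside the gene. No peak centre fell within 5 kb of the start on either side, 1 fell within 10 kb and 2 fell within 20 kb. The peak farthest from the start lay 71.05 kb inside, at 52.3% of the gene's length. The remaining part of DLG5, down to its 3′ end, carried no listed peak: the stretch from 79511509 to 79614958 (103 kb) was empty and includes the end of the gene. The stretch from 79679822 to 79731846 (52.0 kb) was also empty and includes the start. These distances hold for the interval given above. The RefSeq table of GRCh38 lists a longer interval for DLG5, 149946 bp against 135830 bp, so other transcript models would move them.

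A pair of very high-scoring peaks stood in the middle of the group. The score is the authors' own value for each peak, its scale is not stated, and it was used only within this list. The first of the pair, at 79631796 to 79632754, had a score of 3100, a value shared by 235 peaks of the list and exceeded by 34, and a width of 959 bp. The second, at 79629559 to 79630490, scored 2960.07 and was 932 bp wide, above 97.6% of the list. They lay 54.1 and 56.35 kb inside DLG5, at 39.8% and 41.5% of its length, with 1305 bp between their edges. In the whole list 300 peaks scored 2960.07 or more, and 14 of these, in 7 pairs, had another such peak as their neighbour at up to 2 kb. The score limit was the lower score of the DLG5 pair itself, so that pair is among the 7 by construction. Only peaks next to each other in the list were counted, so the count does not measure how rare such a pair is. The next peak of chromosome 10 with so high a score was 1.26 Mb away, at 80887912 to 80889134.

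The pair was flanked on both sides by weaker peaks. Toward the DLG5 start it was followed after 269 bp by a peak at 79633024 to 79633519 with a score of 137.17, which is the only gap under 500 bp in the window. Next came a narrow peak of 336 bp at 79635573 to 79635908 (score 52.91) and a peak of 678 bp at 79637534 to 79638211 (score 81.83). Toward the 3′ end the nearest was the widest peak of the window, 1204 bp at 79624945 to 79626148, with a score of 291.17. These 6 peaks formed a block of 13.3 kb when peaks with edges within 5 kb were joined. Scores within the block thus differed widely over a short distance, from 52.91 to 3100.

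Beyond this block, DLG5 carried further groups with mixed scores. On the 3′ side, 3 peaks lay within 4.77 kb. The middle one, at 79616894 to 79617825, scored 400.07, and those beside it scored 50.07 (79614959 to 79615688) and 119.28 (79619085 to 79619726). The score of 50.07 is close to the lowest of the list, 50, although that peak was 730 bp wide. Nearer to the gene start, a pair of peaks lay within 2.31 kb, a peak at 79649043 to 79649623 with a score of 619.61 and a weaker one at 79647309 to 79647731 with 84.03. The 3′ group and this pair were each led by 1 peak of higher score. Between this pair and the peak nearest to the start lay 2 single, weak peaks: 79658166 to 79658709 scored 88.08, and 79666727 to 79667150 scored 53.85.

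When peaks with edges within 10 kb were joined, 13 of the 14 DLG5 peaks formed 1 cluster of 52.2 kb, wholly inside the gene. The peak closest to the gene start was the one left out, with a gap of 12.34 kb. Among the 13 peaks, 2 scored above 1000, 3 from 200 to 1000, 2 from 100 to 200 and 6 under 100. Steps between neighbouring centres ran from 0.997 to 9.65 kb with a median of 2.36 kb and a coefficient of variation of 74.3%, and the peaks covered 17.0% of the span.

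Outside DLG5, 1 of the 4 peaks scored high. It lay upstream of DLG5, at 79731847 to 79732392, with a score of 904.29 and a width of 546 bp, and scored above 88.2% of the list. Its centre was 45.74 kb upstream of the DLG5 start, whereas its edge was 2515 bp from the 3′ limit of POLR3A, on the side away from that gene. It was thus the peak nearest to POLR3A and also to RPS24, whose start was 61.1 kb away. From this peak on, the list was empty for 213 kb, over POLR3A, the start of RPS24 and the end of the window. The next listed peak, at 79945359 to 79945809 with a score of 72.91, began 152 kb beyond the RPS24 start. An empty stretch in the list does not show that binding was absent, since the depth and the caller's threshold are not known.

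The 3 peaks beyond the 3′ end of DLG5 were all near the floor of the list. They scored 50.28 (79400877 to 79401352), 51.41 (79416689 to 79417243) and 52.86 (79511103 to 79511508), with widths from 406 to 555 bp, and 0.449%, 2.34% and 4.78% of the list scored lower. The closest of them to DLG5 had its centre 39.2 kb beyond the gene's end. The first lay just inside the edge of the window, and the peak just outside that edge, at 79366519 to 79367062, scored 153.85 and had its centre 33.2 kb from it.

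The median score of the window peaks was lower than that of the whole list, 86.055 against 128.265. Their lower quartile was also lower, 53.1 against 70.5, while their upper quartile was higher, 373 against 347. Scores at or above the list's median of 128.265 were seen in 7 of 18 window peaks (38.9%, Wilson 95% interval 20.3 to 61.4%), while the share was 50% over the list by construction. In DLG5 alone it was 6 of 14 (42.9%, 21.4 to 67.4%), and 45.9% (42.3 to 49.5%) in the 724 other peaks of chromosome 10. The highest-scoring 25% of the list held 5 of the 18 peaks (27.8%, 12.5 to 50.9%). A score of 3100 or more was seen in 1 of the 18 (5.56%, 0.988 to 25.8%) and in 2.12% of the list. Scores under 100 were seen in 10 of the 18 (55.6%, 33.7 to 75.4%) and in 41.1% of the list. The interval for the window included the list's share at each of these 4 levels. All 4 levels cut the same 18 scores, and the window was proposed with the scores known. The intervals cover counting error only and treat neighbouring peaks as independent. They are wide, so they do not show that the window and the list are alike.

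**Figure D2:**
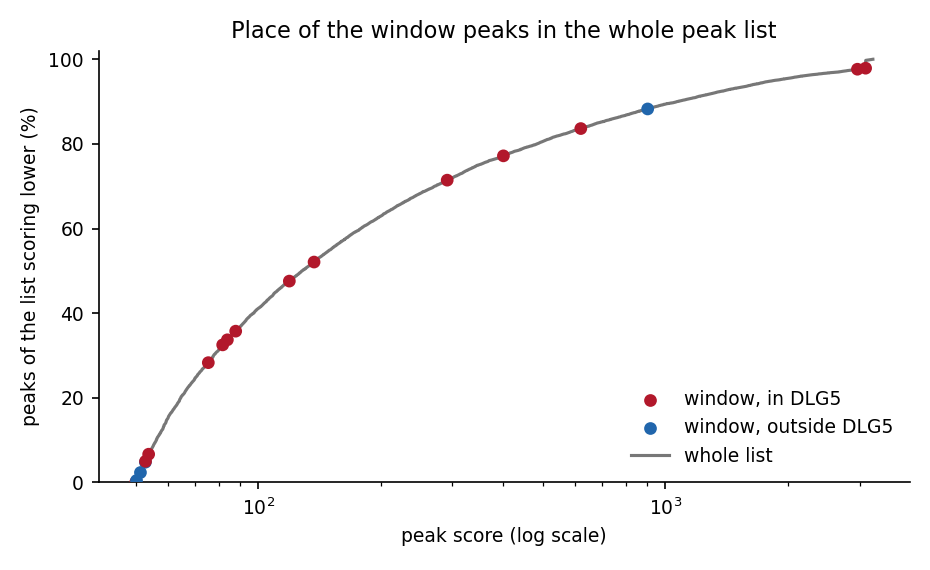
Share of the 12688 listed peaks that score lower, in percent, against peak score on a log axis. The 14 DLG5 peaks are in red, the 4 other window peaks in blue and the whole list is the grey line. Window peaks appear at both ends. Of the 18, 10 (55.6%) score under 100, against 41.1% of the list, and 1 (5.56%) scores 3100 or more, against 2.12%.

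Another peak centre within 10 kb was found for 13 of the 18 window peaks (72.2%, Wilson 95% interval 49.1 to 87.5%), against 41.3% of the whole list. All 13 were the peaks of the DLG5 cluster. The 5 without such a neighbour were the 4 outside the gene and the one nearest to the gene start. Because the window was chosen with this grouping known, the share is a description.

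Window peaks were close to the list in width. The median was 550.5 bp (quartiles 437 and 717 bp) in the window and 505 bp (412 and 644 bp) in the other 12670 peaks. Wider peaks tended to score higher in both, with a Spearman correlation of 0.529 across the 18 window peaks and 0.628 across the other peaks. These peaks share a library and its depth, and neighbouring peaks are not independent, so the values are descriptions.

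**Figure D3:**
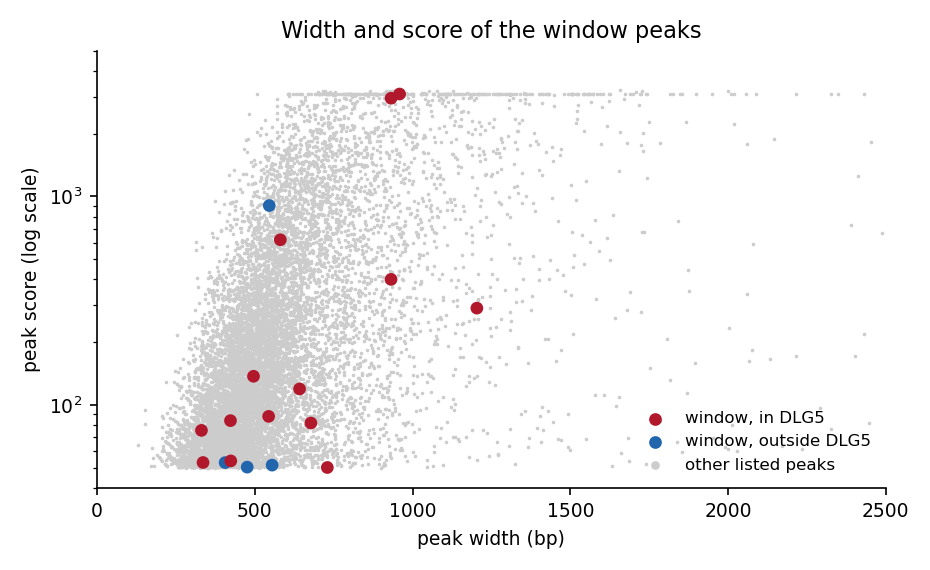
Peak score on a log axis against peak width in bp, with the 14 DLG5 peaks in red, the 4 other window peaks in blue and the rest of the list in grey (26 listed peaks wider than 2500 bp are outside the axis). The 2 strongest DLG5 peaks are 932 and 959 bp wide, and the widest window peak, of 1204 bp, scores 291.17.

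The number of listed peaks varied widely between the DLG5 window and those around it. The DLG5 window held 18 peaks with a median score of 86.055 and a highest score of 3100. The adjoining 500 kb below it, from 78900000 to 79400000, held 23 peaks with a median score of 303.13 and a highest score of 1847.4. The DLG5 window thus had fewer peaks and a lower median than this neighbour, but the higher top score. The adjoining 500 kb above it, from 79900000 to 80400000, held 4 peaks that scored at most 191.85. One window further out on either side, 78400000 to 78900000 held 1 peak, with a score of 1349.4, and 80400000 to 80900000 held 13 peaks with a highest score of 3100. Across chromosomes 1 to 22 and X, 5903 equal windows had a median of 1 peak. In 26 of them, the DLG5 window included, there were 18 or more, and 19 held more than 18.

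On chromosomes 16, 17, 15 and X, 4 other clusters of the list had as many peaks as the DLG5 cluster or more under the same joining. The DLG5 cluster had the lowest median score among these 5, 119.28, against 168.95 on chromosome 16 (14 peaks), 182.36 on chromosome 17 (13), 210.83 on chromosome 15 (13) and 253.84 on chromosome X (15). It was also the longest, with 52.2 kb against 44.0 to 47.2 kb. Of its 13 peaks, 6 scored under 100, while the others had 5, 3, 3 and 0 such peaks in the order just given. Its highest score of 3100 was also the highest on chromosomes 16, 17 and 15 but not on X, where the highest was 1058.58. The value 3100 is shared by 235 peaks of the list, so these ties do not show equal strength. The X cluster was unlike the other 4 in its layout: its peaks had a median width of 1311 bp and covered 49.5% of its span. They were evenly spaced, with steps of 2.69 to 3.88 kb and a coefficient of variation of 10.7% against 58.0 to 84.6%. Ranks that include the X cluster therefore set unlike layouts side by side. These orders describe a few peaks each, were not tested, and show nothing particular to DLG5.

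**Figure D4:**
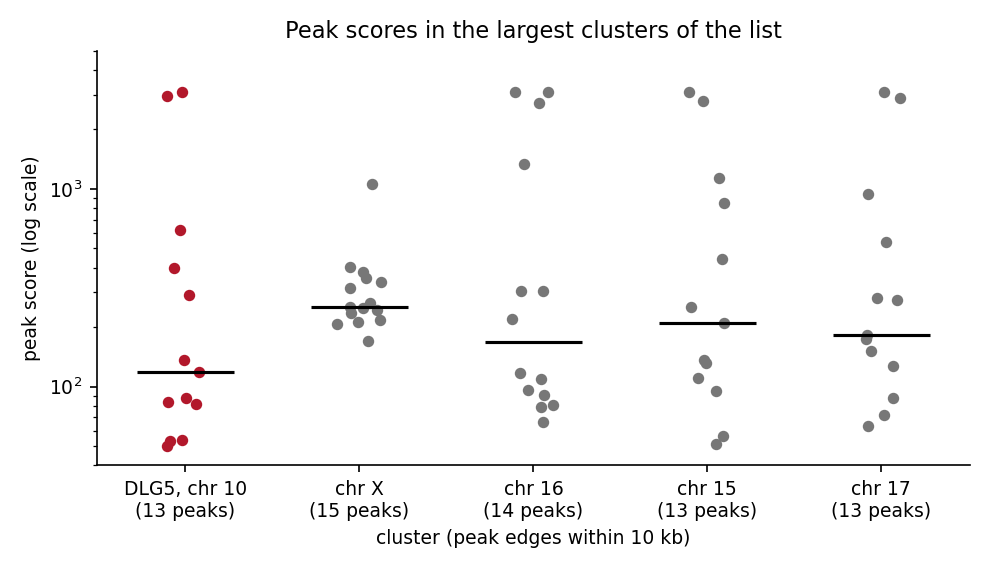
Peak scores on a log axis in the 5 clusters of 13 or more peaks joined within 10 kb, with the DLG5 cluster in red on the left, the others in grey and black lines for the medians. The points are spread sideways at random for legibility. The DLG5 cluster has the lowest median, 119.28, and 2 peaks above 1000.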

How the data were processed

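ERα-bound DNA and input DNA of T47D cells were sequenced, 1 library of each. The authors deposited 1 peak list. Each row places a peak and gives it a score, computed by the authors' caller on a scale that is not stated. Peak names carry the MACS prefix, per the file; the submitters' processing notes name CASAVA 1.8, Bowtie 0.12.9, HOMER and hg19 without saying what each did. Caller version, threshold and handling of duplicate reads were not given in the sources used here. Depth is unknown.

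Starts were counted from 0, and 1 was added for printing. Peaks were placed by their centre, joined where edges lay within 10 kb, and given Wilson 95% intervals. Joining and neighbour counts were tested on simulated data. The window, its gene limits and the peaks to describe were chosen with earlier results of these data known. The rule for naming takes the 10 highest-scoring window peaks, the peaks of the largest cluster, those nearest to gene limits, and the first and last. Promoter letters were searched on both strands in RefSeq windows of GRCh38.p14, and no coordinates were carried between builds. Alternatives were other distances, any overlap, merging and higher-scoring peaks alone. Software was SciPy 1.17.1, pandas 2.3.3, NumPy 2.4.6 and matplotlib 3.10.9 under Python 3.11.15.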

Additional observations from a re-analysis of the deposited data

How the results depend on the processing

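Placing peaks by any overlap of 1 bp left 18 peaks in the window and 14 in DLG5, and merging edges within 500 bp left 17 and 13. At or above the median score of the list, the window held 7 peaks and DLG5 held 6, and in the highest-scoring 25% the window held 5 and DLG5 held 4. Such limits remove 50% or more of the whole list by construction. When only the peaks at or above the median were joined again within 10 kb, the largest cluster held 5. The largest cluster held 6 peaks with edges joined within 5 kb and 14 within 20 kb. The share of window peaks with a neighbour was 61.1% within 5 kb, 88.9% within 20 kb and 71.4% among the higher-scoring peaks. The share over the whole list was taken only for all peaks within 10 kb (41.3%), so these shares have no reference. A share of this kind can only rise with distance. Within 1 kb and within 5 kb of the DLG5 start 0 peak centres were listed, against 1 within 10 kb and 2 within 20 kb. The share at or above the median was 44.4% with the median of chromosome 10 as the level. No paired analysis was possible because neither the ERα nor the input library has a replicate. Read depth is unknown, which limits what can be said of weak or missing sites.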
